A study of Mus musculus with 18 samples.

Results

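The antioxidant enzymes described here are the peroxiredoxins Prdx1 to Prdx6, the glutathione peroxidases Gpx1 and Gpx4, the superoxide dismutase Sod2 and catalase (Cat), 10 genes chosen by symbol together with every probe set that carries one of the symbols. In mouse liver 7 of the 10 were measured by probe sets of their own, 16 in all, among 18193 genes with such a probe set. The 5 probe sets of Prdx1 also carry Gm21399, a Prdx1 pseudogene, so their values belong to neither gene alone and are described without a test. No listed probe set carried Prdx5 or Prdx6, which are not analysed here.

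Peroxiredoxins and glutathione peroxidases both reduce hydrogen peroxide and organic peroxides. Peroxiredoxins use a reactive cysteine, which in most of them the thioredoxin system restores, glutathione peroxidases use selenocysteine and glutathione, and both draw their electrons from NADPH. Sod2 turns superoxide into hydrogen peroxide in the mitochondrial matrix, where Prdx3 is the main peroxiredoxin, Prdx4 works in the endoplasmic reticulum, where disulfide formation releases peroxide, and catalase clears the peroxide made by the oxidases of peroxisomes. Hepatocytes, which burn fatty acids in mitochondria and peroxisomes and secrete much protein, are rich in these enzymes.

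C57BL/6J, the inbred strain used, was represented by male mice whose livers were taken at 62 weeks of age. From the age of 5 weeks they ate a low-fat diet with 10% of fat or a high-fat diet with 60%, at will (LF, HF), with 30% calorie restriction (LF+CR, HF+CR), or at will with a running wheel (LF+Ex, HF+Ex). All were housed singly, the ration of each restricted group was set from what the mice eating the same diet at will consumed, and 30 mice were assigned to a group, of which 3 were measured. Each of the 18 Affymetrix Mouse Genome 430 2.0 arrays holds the RNA of 1 mouse, so that the spread within a group is that between 3 mice, and neither the time of day nor the fed state at sampling is given in the sources used here. The design asks how dietary fat, restriction and running each act on liver expression, and whether an intervention acts alike on both diets.

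Array mean intensities lay between 304.9 and 307.8, and 8 of 9 hepatocyte markers were measured, all above the dim threshold (the 40th percentile of an array, 88.2 to 97.6). The first principal component of the tested genes (27.0% of their variance) set HF 1 (score 21.1), HF+Ex 3 (19.1) and LF+CR 2 (23.6) apart from the other arrays (-14.4 to 8.52). The colipase gene Clps, a marker of the exocrine pancreas, read 215 to 599 on LF 1, LF+Ex 3, LF+CR 1 and HF+Ex 1, against 52.6 to 62.1 elsewhere; these are called the 4 arrays with pancreatic transcripts. The log2 difference between the 3 prime and 5 prime probe sets of beta-actin, a measure of RNA integrity, ran from 0.63 to 1.13. For the 7 measured enzymes, values without these arrays are given where their absence ended a call, and for the gene lists the counts without them. In whole liver, fewer cells of a type and less RNA per cell cannot be told apart.

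Among the pairs of groups, calorie restriction on the high-fat diet gave the most changes in these enzymes. Of the 7 tested genes, Prdx3, Gpx4 and Sod2 fell and Prdx4 rose in HF+CR against HF, 4 of 7 by limma at an adjusted p under 0.05, where 6.07% of the 14201 tested genes passed in either direction and 2.55% fell. Without HF 1, HF+Ex 3 and LF+CR 2 the count was 2 (Gpx4 and Prdx4), without the 4 arrays with pancreatic transcripts it was 1 (Prdx4), and without HF 1, HF 3, HF+CR 1 or HF+CR 2 alone it was also 1 (Prdx4). On the low-fat diet 0 of 7 passed between LF+CR and LF (1 of 7 at an unadjusted p under 0.05), against 5.57% of all genes. Dietary fat alone (HF against LF) moved 1 of 7, Prdx4, which was lower, against 0.894% of all genes. Running moved 0 of 7 on either diet, also at an unadjusted p under 0.05, against 0.00704% of all genes on the low-fat and 0.0% on the high-fat diet. The difference between the restriction effects on the 2 diets passed for Prdx3, Prdx4 and Sod2, 3 of 7, against 5.75% of all genes, and for 2 and 0 of 7 without those 3 and 4 arrays. These comparisons share groups (HF stands in 3 of the pairs), so their values are given side by side and not as repeats of each other.

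**Figure D1:**
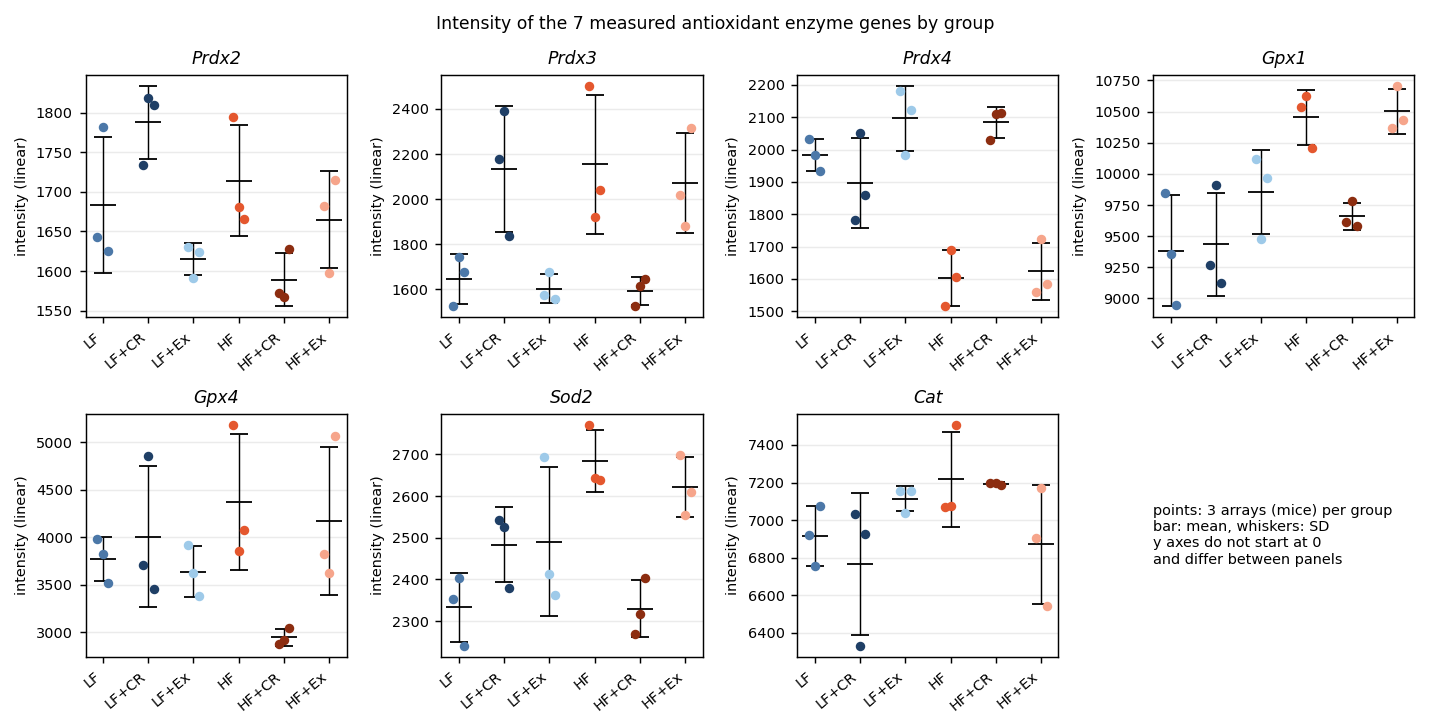
Intensity (linear, y axes not from 0 and different in each panel) of the 7 measured enzymes, with 1 point per array, the mean as a bar and the SD as whiskers over 3 mice. Prdx4 was lowest in HF and HF+Ex, Gpx4 was lowest in HF+CR, and every Prdx3 value of LF, LF+Ex and HF+CR (1525 to 1742) lay under every value of LF+CR, HF and HF+Ex (1838 to 2504).

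Prdx3, the mitochondrial peroxiredoxin (chromosome 19, 60864066 to 60874538 in GRCm38.p6, 1 probe set), was low in 3 groups and high in the other 3. It read 1525, 1742 and 1676 in LF and 1576, 1677 and 1558 in LF+Ex. In LF+CR the values were 2177, 2389 and 1838, and in HF+CR 1526, 1613 and 1645. In HF they were 2504, 1921 and 2040.3, and in HF+Ex 2020.1, 1882 and 2314. Restriction thus went with the higher values on the low-fat diet and with the lower values on the high-fat diet, and neither restricted group overlapped the group that ate the same diet at will. The HF+CR mean was 1595 ± 61.6 against 2155 ± 308 in HF (SD, n = 3 each), and the log2 fold change was -0.42 (SE 0.11, limma adjusted p = 0.0306). On the low-fat diet the means were 2134 ± 278 in LF+CR and 1648 ± 111 in LF, and the log2 fold change of 0.36 (SE 0.11) missed the threshold (adjusted p = 0.0586) but passed without LF+CR 3, as the 1 of 7. The difference of the 2 effects was -0.79 (SE 0.15, adjusted p = 0.00696), the largest in size among the 7 genes. It passed under 25 of 28 alternatives (adjusted p 0.00182 to 0.951) and with each array left out in turn, and it was -0.71 (adjusted p = 0.0707) without the 4 arrays with pancreatic transcripts. The drop in HF+CR against HF passed under 12 of 22 alternatives (adjusted p 0.0106 to 0.852), and it was lost without HF 1, HF 3, HF+CR 1 or HF+CR 2, and without HF 1, HF+Ex 3 and LF+CR 2 together (-0.31, adjusted p = 0.0564) or the 4 arrays with pancreatic transcripts (-0.42, adjusted p = 0.0717).

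From lowest to highest mean the order of the groups for Prdx3 was HF+CR, LF+Ex, LF, HF+Ex, LF+CR and HF. Of the 5 neighbouring pairs in this order, only LF and HF+Ex did not overlap. Prdx3 was lower in HF+CR than in LF+CR, by -0.41 (SE 0.11, adjusted p = 0.0246), the 1 of 7 genes that passed there, against 8.93% of all genes. It was higher in LF+CR than in LF+Ex, by 0.40 (SE 0.11, adjusted p = 0.0265), again the 1 of 7, against 9.31%. HF against LF gave 0.38 (SE 0.11, adjusted p = 0.0972) with groups that did not overlap. The first call was lost without LF+CR 1, LF+CR 2 or any 1 of the HF+CR arrays, and the call against LF+Ex without LF+Ex 1, LF+Ex 3, LF+CR 1 or LF+CR 2, each leaving 0 of 7, while without LF+CR 3 Gpx4 joined Prdx3 in HF+CR against LF+CR (2 of 7). Without the 4 arrays with pancreatic transcripts neither passed (-0.39, adjusted p = 0.118, and 0.36, adjusted p = 0.209).

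Sod2, the matrix superoxide dismutase (chromosome 17, 13007839 to 13018119), followed the high-fat groups with a smaller amplitude. It read 2771, 2644 and 2638 in HF, 2699, 2555 and 2609 in HF+Ex, and 2269, 2317 and 2403 in HF+CR. On the low-fat diet it read 2354, 2404 and 2241 in LF, 2694, 2414 and 2363 in LF+Ex, and 2544, 2526 and 2380.2 in LF+CR. HF and HF+CR did not overlap, while the LF groups overlapped each other. HF+CR against HF gave a log2 fold change of -0.20 (SE 0.06, adjusted p = 0.0479), and the difference between the restriction effects was -0.29 (SE 0.08, adjusted p = 0.0455). Both calls lay close to the threshold. The first was lost on leaving out any 1 of the 6 arrays compared (8 of 22 alternatives kept it, adjusted p 0.0282 to 0.686), and the second without any 1 of the 12 arrays except LF+CR 3 (8 of 28 kept it, adjusted p 0.0165 to 0.947). Neither passed without HF 1, HF+Ex 3 and LF+CR 2 (-0.18 and -0.26) or without the 4 arrays with pancreatic transcripts (-0.20 and -0.28). HF against LF gave 0.20 (SE 0.06, adjusted p = 0.101), also without overlap.

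The 4 probe sets of Sod2 did not move alike. On 1417193_at, HF+CR read 2267, 2390 and 2337 and HF 2518, 2513 and 2467, a log2 fold change of -0.10 (adjusted p = 0.300), while LF+CR held the highest group mean with 2695, 2682 and 2497. On 1454976_at the highest values were those of HF+Ex (743, 703 and 682), and 2 of the 3 LF+CR arrays (477 and 481) were the lowest of all 18. The last, 1417194_at, read 86.2 to 114 and passed the dim threshold on 12 arrays only. In a fit with each of 24481 probe sets as a unit of its own, the representative probe set 1448610_a_at gave -0.20 in HF+CR against HF at an adjusted p of 0.0515, with 5.17% of all probe sets passing there, and -0.29 at 0.0480 for the difference of the effects, with 5.23% passing.

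Prdx4, the peroxiredoxin of the endoplasmic reticulum (chromosome X, 155323918 to 155342272), moved the other way and set the high-fat groups that ate at will apart from the rest. It read 1515, 1688 and 1607 in HF and 1560.2, 1724 and 1585 in HF+Ex. In HF+CR it read 2029, 2111 and 2112. On the low-fat diet it read 2034, 1982 and 1935 in LF, 2181, 1983 and 2124 in LF+Ex, and 1782, 2052 and 1858 in LF+CR. Every HF and HF+Ex value lay under every value of the other 4 groups. HF was lower than LF by a log2 fold change of -0.31 (SE 0.06, adjusted p = 0.0354), from 1984 ± 49.6 to 1603 ± 86.8 (SD, n = 3 each), and HF+CR was higher than HF by 0.38 (SE 0.06, adjusted p = 0.00382), at 2084 ± 47.4. Of these 2 calls the second passed under 20 of 22 alternatives, each left-out array included (adjusted p 0.000533 to 0.541), and was lost with the mean of the probe sets of the gene (0.22, adjusted p = 0.0531). The first passed under 9 of 22 (adjusted p 0.00828 to 0.352) and was lost without HF 1, HF 3 or any 1 of the LF arrays, which left 0 of 7 genes. It was -0.27 (adjusted p = 0.0877) without HF 1, HF+Ex 3 and LF+CR 2, and -0.29 (adjusted p = 0.228) without the 4 arrays with pancreatic transcripts.

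Prdx4 also passed in HF+Ex against LF+Ex and in HF+CR against HF+Ex, but not in HF+CR against LF+CR (0.14, SE 0.06, adjusted p = 0.209), where the groups overlapped. HF+Ex was lower than LF+Ex by -0.37 (SE 0.06, adjusted p = 0.00808), the 1 of 7 genes that passed, against 1.75% of all genes. This call was lost without LF+Ex 1, which left 0 of 7. HF+CR was higher than HF+Ex by 0.36 (SE 0.06, adjusted p = 0.00842), the 1 of 7, against 2.71%, and it passed with each of the 6 arrays left out in turn. On the low-fat diet LF+CR against LF gave -0.07 (SE 0.06, adjusted p = 0.677), and the difference between the restriction effects was 0.44 (SE 0.09, adjusted p = 0.0108; 24 of 28 alternatives kept the call, each left-out array included, with adjusted p 0.00140 to 0.947). Without the 4 arrays with pancreatic transcripts these 3 calls were lost, at -0.33 for HF+Ex against LF+Ex, 0.33 for HF+CR against HF+Ex and 0.38 for the difference of the effects (adjusted p = 0.127, 0.0864 and 0.0860). From lowest to highest mean the order was HF, HF+Ex, LF+CR, LF, HF+CR and LF+Ex, and of the 5 neighbouring pairs only HF+Ex and LF+CR did not overlap. Between groups lay 88.1% of the variance of Prdx4 over the 18 arrays, against a median of 44.5% over all tested genes.

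The calls of Prdx4 rest on 1 of its 4 probe sets, 1416167_at. The other probe sets gave the same signs with less separation: in HF+CR against HF the log2 fold change was 0.21 (adjusted p = 0.264) on 1416166_a_at and 0.21 (adjusted p = 0.178) on 1435731_x_at. In HF against LF they gave -0.17 (adjusted p = 0.467) and -0.14 (adjusted p = 0.479), with groups that did not overlap, where 0.743% of all probe sets passed. On 1416166_a_at HF read 667, 726 and 688 and LF 748, 745 and 857, and on 1435731_x_at HF read 713, 735 and 634 and LF 760.04, 750.3 and 786. Within HF+CR those probe sets spread widely, from 687 to 915 and from 712 to 869, where 1416167_at did not. The fourth, 1431269_at, read 52.4 to 59.4 and was not above the dim threshold on any array.

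**Figure D2:**
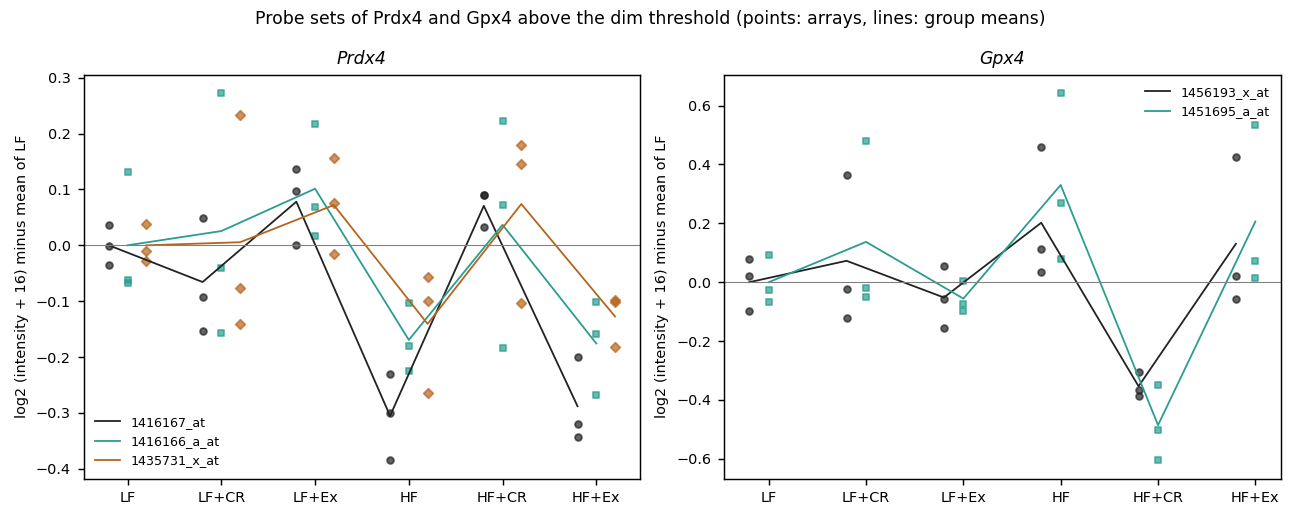
Log2 (intensity + 16) minus the LF mean for each probe set of Prdx4 (left, 3 probe sets) and Gpx4 (right, 2 probe sets) above the dim threshold, with 1 point per array and lines through the group means. All 3 Prdx4 probe sets have their lowest means in HF and HF+Ex, and both Gpx4 probe sets have their lowest mean in HF+CR.

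Gpx4, the selenoenzyme that reduces lipid hydroperoxides in membranes and restrains ferroptosis (chromosome 10, 80047166 to 80056439), was lower in HF+CR than anywhere else. HF+CR read 2873, 2916 and 3039.9, and the lowest of the other 15 arrays was 3380 (LF+Ex 3). HF read 5181, 3852 and 4071 and HF+Ex 3820.2, 3619.9 and 5061. On the low-fat diet LF read 3975, 3818 and 3513, LF+Ex 3911, 3618 and 3380, and LF+CR 3700.4, 4850.1 and 3457. In HF, HF+Ex and LF+CR 1 array stood above its group, and these were HF 1, HF+Ex 3 and LF+CR 2, the arrays with the highest scores on the first component. HF+CR had a mean of 2943 ± 86.7 and HF one of 4368 ± 713 (SD, n = 3 each), and the log2 fold change was -0.56 (SE 0.14, adjusted p = 0.0288). Without those 3 arrays the fold change was -0.43 (SE 0.08, adjusted p = 0.00772). It passed under 15 of 22 alternatives (adjusted p 0.00620 to 0.926) and was lost without HF 1, HF 3, HF+CR 1 or HF+CR 2, and without the 4 arrays with pancreatic transcripts (-0.56, adjusted p = 0.0636), which are in neither group and enter only through the shared estimate of the spread.

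The second Gpx4 probe set, 1451695_a_at, fell farther. It read 2115, 2273 and 2528 in HF+CR and 5045, 3404 and 3892 in HF, a log2 fold change of -0.82 (SE 0.16, adjusted p = 0.00894 over all probe sets). It was also lower in HF+CR than in HF+Ex (-0.69, adjusted p = 0.0330) and than in LF+CR (-0.62, adjusted p = 0.0229), and its difference between the restriction effects was -0.95 (SE 0.22, adjusted p = 0.0232). On the representative probe set 1456193_x_at the same 3 values were -0.48 (adjusted p = 0.0708), -0.43 (adjusted p = 0.0672) and -0.63 (adjusted p = 0.0707) in the fit over genes, none of which passed. HF against LF gave 0.20 (SE 0.14, adjusted p = 0.482) for Gpx4, and LF+CR against LF 0.07 (SE 0.14, adjusted p = 0.866). The order of the means was HF+CR, LF+Ex, LF, LF+CR, HF+Ex and HF, with a gap between groups only after HF+CR.

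The proximal promoters of the 3 genes that fell together in HF+CR, and that of Prdx1, are shown to set the start of each gene beside its values. They are the 250 bases before the RefSeq start site in GRCm38.p6, 5′ to 3′ on the strand of the gene, with matches to TGACNNNGC, the core of the element bound by the stress factor NRF2, in capitals. For Gpx4, which has 4 listed start sites, the window at the start of the gene (80047166) is given. The other sites lie together downstream of it, at 80053565, 80053659 and 80054011. Which of them is used in liver was not tested, so the printed window may not be the active promoter. The Prdx1 window was added after the matches were seen.
Prdx3, chr19:60874539-60874788, minus strand: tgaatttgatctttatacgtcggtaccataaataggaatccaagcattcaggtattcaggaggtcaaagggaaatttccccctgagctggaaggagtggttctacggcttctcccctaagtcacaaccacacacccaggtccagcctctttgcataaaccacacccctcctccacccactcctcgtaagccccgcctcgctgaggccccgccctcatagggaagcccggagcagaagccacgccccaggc
Gpx4, chr10:80046916-80047165, plus strand: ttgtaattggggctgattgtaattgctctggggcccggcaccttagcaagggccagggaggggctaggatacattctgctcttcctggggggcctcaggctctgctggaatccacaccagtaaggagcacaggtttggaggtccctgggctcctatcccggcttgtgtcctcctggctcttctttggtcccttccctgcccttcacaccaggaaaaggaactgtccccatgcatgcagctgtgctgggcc
Sod2, chr17:13007589-13007838, plus strand: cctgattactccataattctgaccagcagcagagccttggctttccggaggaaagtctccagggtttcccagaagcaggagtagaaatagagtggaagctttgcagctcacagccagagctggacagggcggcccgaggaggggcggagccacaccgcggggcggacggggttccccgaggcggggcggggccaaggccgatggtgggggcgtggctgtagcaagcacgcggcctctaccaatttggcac
Prdx1, chr4:116685349-116685598, plus strand: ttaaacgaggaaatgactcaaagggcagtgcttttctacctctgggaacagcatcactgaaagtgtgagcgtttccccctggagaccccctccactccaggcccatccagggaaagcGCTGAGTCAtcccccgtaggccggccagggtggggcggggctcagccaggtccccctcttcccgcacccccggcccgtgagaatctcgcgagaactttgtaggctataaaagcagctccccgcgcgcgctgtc
On either strand, the core was found in 1 of the 9 genes with a promoter entry, Prdx1, at position -133 on the minus strand, and TGTTTAC, the element of FOXO factors, in 0 of 9, in 12 windows in all. Over 32851 windows of the same length the core occurred in 10.2% and the FOXO element in 3.17%. No match says only that these letters are not in this window.

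Prdx1, a cytosolic peroxiredoxin and known NRF2 target, could be followed only through the 5 probe sets that also carry Gm21399. On 1436691_x_at LF+CR read 7713, 8462 and 7759.8 and LF 7175, 7284 and 7215, and HF+CR read 7295, 7144 and 7091 and HF 7649, 7387 and 7461. On 4 of the 5 probe sets every LF+CR array lay above every LF array, by log2 differences of 0.11 to 0.18 over the 5, where 20.2% of all tested genes did not overlap in either direction. On 4 of the 5 every HF+CR array lay under every HF array (-0.12 to -0.06, against 31.3%), and on 5 of 5 under every LF+CR array (-0.19 to -0.12, against 27.1%). The pattern was not particular to restriction. Every HF+Ex array also lay under every HF array on 4 of the 5 (-0.09 to -0.04, against 8.12%). Every HF array lay above every LF array on 3 of the 5 (0.03 to 0.11 over the 5, against 22.6%). LF+Ex and LF overlapped on all 5. These probe sets share most of their target, so their count is that of 1 measurement.

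Prdx2, the other cytosolic peroxiredoxin measured (chromosome 8, 84969622 to 84974811), and Gpx1, the abundant cytosolic and mitochondrial glutathione peroxidase (chromosome 9, 108339080 to 108340342), passed in none of the 11 comparisons. Prdx2 ran from 1588.8 ± 33.4 in HF+CR to 1788 ± 46.4 in LF+CR (SD, n = 3 each), 2 groups that did not overlap, with a log2 fold change of -0.17 (SE 0.05, adjusted p = 0.0574). Its difference between the restriction effects was -0.19 (SE 0.07, adjusted p = 0.130). Its second probe set, 1430979_a_at, gave -0.002 for HF+CR against LF+CR and was highest in HF (360, 326 and 328) and HF+Ex (331, 306 and 365). Gpx1 read 10538, 10622 and 10204 in HF and 10366, 10709 and 10432 in HF+Ex, above every array of the other 4 groups (8951 to 10115). HF against LF gave 0.16 for Gpx1 (SE 0.05, adjusted p = 0.147), and HF+CR against HF gave -0.11 (SE 0.05, adjusted p = 0.181).

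Cat, the peroxisomal enzyme (chromosome 2, 103453904 to 103485153), passed in none of the 11 comparisons. HF+CR read 7200.4, 7196 and 7185 and HF 7068, 7074 and 7507, a log2 fold change of 0.00 with a 95% interval from -0.12 to 0.11. The interval was -0.15 to 0.08 for LF+CR against LF and -0.05 to 0.17 for HF against LF. On its second probe set, 1416429_a_at, LF+CR read 5106, 5204 and 5067 and LF 4618, 4741 and 5016, without overlap (log2 0.10, SE 0.06, adjusted p = 0.418), while HF+CR against HF gave -0.01 (adjusted p = 0.915). On the representative probe set the lowest array was LF+CR 2 with 6333 and the highest HF 3 with 7507. Differences within these intervals would not have been detectable, so that equal levels are not shown.

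Counted by overlap, the groups separated for 6 of 7 genes in HF+CR against HF, all but Cat, where 31.3% of all tested genes did not overlap. In HF against LF they separated for 4 of 7 (Prdx3, Prdx4, Gpx1 and Sod2), against 22.6%. In LF+CR against LF they separated for Prdx3 alone, 1 of 7, against 20.2%. The counts were 6 of 7 against 28.6% in HF+CR against HF+Ex, and 4 of 7 against 27.1% in HF+CR against LF+CR. The median log2 fold change of the 7 genes was -0.11 in HF+CR against HF and 0.16 in HF against LF, with medians of 0.04 and -0.03 over all tested genes.

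**Figure D3:**
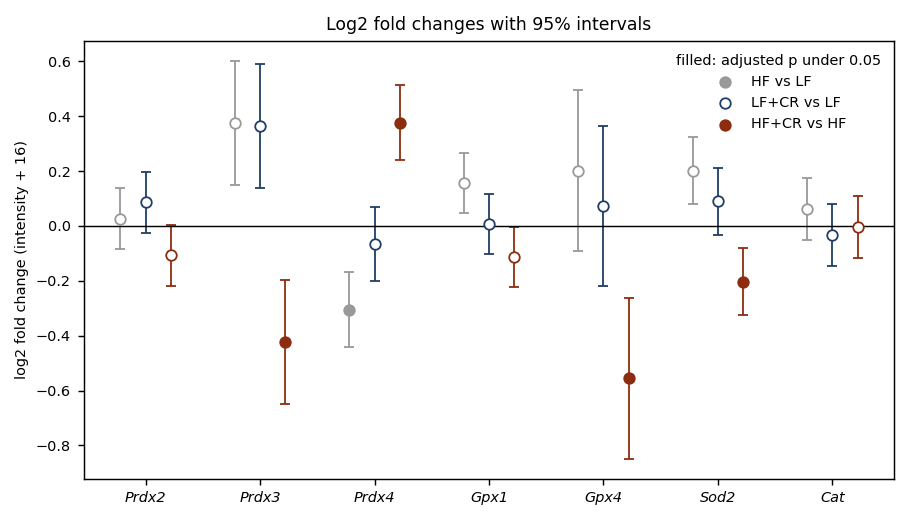
Log2 fold changes (intensity + 16) of the 7 genes in HF against LF, LF+CR against LF and HF+CR against HF, with unadjusted 95% intervals over the fit of 18 arrays and filled points at an adjusted p under 0.05. The filled points are Prdx4 in HF against LF (-0.31) and Prdx3, Prdx4, Gpx4 and Sod2 in HF+CR against HF (-0.42, 0.38, -0.56 and -0.20).

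Running changed none of the 7 genes by the test on either diet, as counted above. On the representative probe sets the log2 fold changes in HF+Ex against HF lay between -0.07 (Gpx4) and 0.02 (Prdx4). In LF+Ex against LF they lay between -0.06 (Prdx2) and 0.09 (Sod2). On the Sod2 probe set 1454976_at every HF+Ex array lay above every HF array, where 8.12% of all tested genes did not overlap. Its log2 fold change was 0.22 (SE 0.08, limma unadjusted p = 0.0180), and it did not pass after adjustment. The interval for Prdx4 in HF+Ex against HF was -0.12 to 0.15, and that for Prdx3 -0.28 to 0.17. Those of Gpx4 were wider, -0.36 to 0.22 on the high-fat and -0.35 to 0.24 on the low-fat diet. Of the 14201 tested genes, 348 had an unadjusted p under 0.05 in HF+Ex against HF and 561 in LF+Ex against LF. Both are a smaller share than the 0.05 that this threshold alone would let through. The difference between the running effects on the 2 diets passed for 0 of 7, also at an unadjusted p under 0.05, against 0.00704% of all genes.

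NADPH is the source of electrons for these peroxidases. In LF+CR against LF, 4 of 11 tested genes of NADPH supply rose: Pgd (log2 1.42), the malic enzyme Me1 (0.79) and the isocitrate dehydrogenases Idh2 (0.50, mitochondrial) and Idh1 (0.48). In HF+CR against HF 1 of 11 fell, Idh2, from 1502 ± 171 to 937 ± 24.3 (log2 -0.67, SE 0.14, adjusted p = 0.0104), and in HF against LF 1 of 11 rose, Idh2 again (0.65, SE 0.14, adjusted p = 0.0365). The list's medians were 0.28, -0.14 and 0.08 in these 3 comparisons, beside -0.01, 0.04 and -0.03 over all genes. For the difference between the restriction effects 3 of 11 passed, all with negative values, Pgd (-1.69), Idh2 (-1.16) and Me1 (-1.03). Without the 4 arrays with pancreatic transcripts the counts were 1 of 11 in LF+CR against LF, 1 in HF+CR against HF, 0 in HF against LF and 1 for the difference, and with a replicate block they were 3, 1, 0 and 3. Nnt, the mitochondrial transhydrogenase gene, passed between HF+CR (790.3 ± 21.9) and HF+Ex (1456 ± 426), by -0.82 (adjusted p = 0.0320). This is a transcript level, and whether a working enzyme is made from it in this strain was not tested.

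Of the NRF2 signalling genes and targets outside glutathione metabolism, the quinone reductase Nqo1 and the carbonyl reductase Cbr1 rose in LF+CR and fell in HF+CR, each against the same diet at will. In LF+CR against LF 3 of 12 passed with higher values, Nqo1 (log2 0.96), Cbr1 (0.88) and the exporter Abcc4. The Abcc4 means were 95.4 in LF and 86.2 in HF+CR, at or under the dim threshold, 233 ± 143 in LF+CR and 144 ± 48.3 in HF, so that no fold change is given for it. In HF+CR against HF 3 of 12 fell, Nqo1 (-1.17), Cbr1 (-0.78) and the exporter Abcc3 (-0.57). Nqo1 had means of 172 ± 15.3 in LF, 381 ± 205 in LF+CR, 328 ± 107 in HF and 132 ± 13.8 in HF+CR (SD, n = 3 each). The difference between the restriction effects passed for 4 of 12, all with negative values: Nqo1 (-2.13), Cbr1 (-1.66), Ugdh (-1.35) and Abcc4. In HF against LF 1 of 12 rose, Abcc3 (0.58), which read 1501 ± 146 in LF and 1336 ± 119 in LF+CR. Without the 4 arrays with pancreatic transcripts 1 of 12 passed in each restriction comparison, 2 for their difference and 0 in HF against LF. With a replicate block the count was 1 in LF+CR against LF and 0 in HF against LF. The list's median was -0.47 in HF+CR against HF and 0.09 in LF+CR against LF.

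The thioredoxin system, which recycles most peroxiredoxins, and the lists beside it are set against the shares over all tested genes. These were 6.07% in HF+CR against HF, 5.57% in LF+CR against LF and 0.894% in HF against LF. In lists this short, the counts are not read as a result about a list. Of the 13 tested genes of the thioredoxin system 0 passed in HF+CR against HF or HF against LF, and Txnl1 alone rose in LF+CR against LF (0.36). Txnrd1, the cytosolic thioredoxin reductase, read 1538 ± 194 in HF and 1182 ± 202 in HF+CR, and did not pass. Of 7 other peroxidases and dismutases 0 passed in HF+CR against HF, and in LF+CR against LF 1 of 7 passed, Gpx2, at 86.1 ± 3.38 in LF, which was not above background, and 103 ± 8.85 in LF+CR. Of 10 tested genes of glutathione synthesis and recycling 2 fell in HF+CR against HF, the glutaredoxins Glrx (-0.42) and Glrx5 (-0.29), while Gclc, the rate-limiting ligase, read 3853 ± 820 in HF and 2474 ± 300.4 in HF+CR without passing. Of 13 selenoprotein and methionine sulfoxide reductase genes 2 fell there, Selenow (-0.53) and Msra (-0.27), and in LF+CR against LF Msrb1 alone fell (-0.59). Without the 4 arrays with pancreatic transcripts 0 genes of the thioredoxin, other peroxidase and selenoprotein lists passed in LF+CR against LF, and in HF+CR against HF 1 selenoprotein gene and 2 glutathione genes passed.

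In the lists for the compartments that make the peroxide, a few genes each passed. Over all tested genes 6.07% passed in HF+CR against HF and 5.57% in LF+CR against LF. Counts this small are not read as a change of a compartment. Of 15 peroxisome assembly and membrane genes, 2 fell in HF+CR against HF, Pex11a (-1.25), a factor of peroxisome division, and Pex14 (-0.29), and 3 fell in LF+CR against LF, Pex11a (-0.63), Pex6 (-0.51) and Pxmp4 (-0.45). Of 13 peroxide-forming oxidases, Maoa of the mitochondrial outer membrane and Hao1 of peroxisomes passed in both restriction comparisons with opposite signs on the 2 diets: Maoa rose by 0.44 in LF+CR and fell by 0.49 in HF+CR, and Hao1 gave -0.38 and 0.41. Of 12 genes that stand for mitochondrial mass, Cycs (0.35) and Tomm20 (0.25) rose in LF+CR against LF and Tomm20 fell in HF+CR against HF (-0.33). Of 10 FOXO and PGC1 regulators 0 passed in either restriction comparison. Without the 4 arrays with pancreatic transcripts the mitochondrial list had 0 genes that passed in LF+CR against LF and the oxidases 1, and the peroxisome list had 1 in each restriction comparison. With the red cell covariate described below, 0 genes of these lists passed in HF against LF, in either restriction comparison or for their difference. In HF against LF none of the peroxisome, oxidase, mitochondrial and regulator lists had a gene that passed, and under running no gene of any list passed on either diet.

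Prdx3 and Gpx4 varied together from mouse to mouse. Over the 18 arrays, which share preparation and the scaling of the deposited values, Pearson's r between them was 0.79, and 0.81 after the group means were removed. Prdx3 followed the score on the first principal component with r = 0.94 (0.80 within groups) and Gpx4 with 0.84 (0.88 within groups), and both are among the genes it was computed from. Prdx4 ran against Prdx3 with r = -0.74, and within groups with -0.27. The part of this component in the differences between groups was not tested. The genes most like Prdx3 over the 18 arrays were Cpeb1 (r = 0.95), Tceal8 (0.94) and Ifi27l2b (0.93), those most like Gpx4 were Psap (0.94), H2-K1 (0.92) and Apoc2 (0.91), those most like Prdx4 were Bcl7a (0.92), Cbs (0.88) and Tcp11l2 (0.88), and those most like Sod2 were Agmo (0.84), Ube2e2 (0.83) and 9130409I23Rik (0.81).

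**Figure D4:**
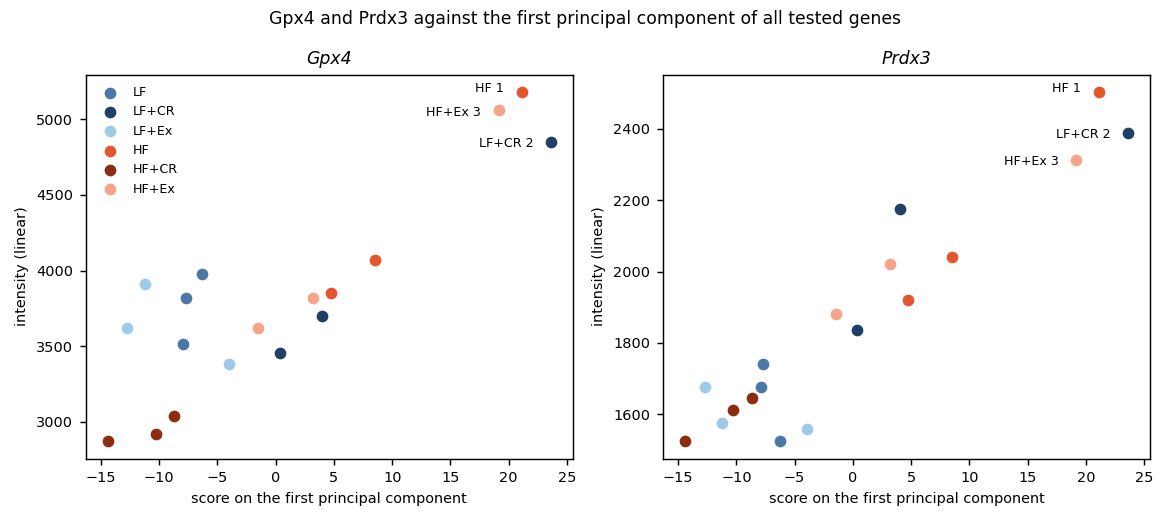
Intensity (linear) of Gpx4 and Prdx3 on each of the 18 arrays against the score of the array on the first principal component of all tested genes, coloured by group. HF 1, HF+Ex 3 and LF+CR 2 hold the 3 highest values of both genes, and the HF+CR arrays hold the 3 lowest of Gpx4.

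Marker sums of several cell types did not overlap between HF+CR and HF, where 31.3% of single tested genes did not overlap. Hepatocyte markers summed to 80695 to 84437 in HF+CR and 76903 to 79754 in HF. Cholangiocyte markers, with Krt7 under the dim threshold, were also higher (428 to 894 and 387 to 419). Neutrophil and lymphocyte markers overlapped (926 to 1029 and 983 to 1019). Over the arrays these sums had r = -0.34, -0.15 and 0.10 with Gpx4. The summed intensity of 10 Kupffer cell and macrophage markers, all above the dim threshold, was 6076 to 7256 in HF+CR and 7846 to 11981 in HF. It was 6237 to 10366 in LF, 7452 to 13207 in LF+CR, 6480.5 to 8307 in LF+Ex and 6145 to 10948 in HF+Ex. The highest sums were those of LF+CR 2 and HF 1. Over the 18 arrays it followed Gpx4 with r = 0.72 (0.62 within groups) and Prdx3 with 0.65 (0.55 within groups), and 0 of the 10 markers passed in HF+CR against HF, with a median log2 fold change of -0.67. The sum of 8 stellate cell markers, all above the threshold, followed Gpx4 with r = 0.66 (0.84 within groups), and ran from 5607 to 6366 in HF and from 4963 to 5431 in HF+CR. Of the 8 stellate markers Rgs5 fell in HF+CR against HF (-0.63, SE 0.17, adjusted p = 0.0449). The sum of 8 sinusoidal endothelial markers, all above the threshold, was 4415 to 4687 in HF and 4077 to 4287 in HF+CR, and it was 4223 to 4536 in LF and 3905 to 4251 in LF+CR. Of these, Lyve1 rose in HF against LF (1.07, adjusted p = 0.0354) and fell in HF+CR against HF (-1.10, adjusted p = 0.00987), where Fcgr2b also fell (-0.31, adjusted p = 0.0266). The endothelial sum ran against Prdx4 with r = -0.66 (-0.37 within groups). The sum of 10 measured pancreatic acinar markers was 1410.2 to 1470.4 in HF and 2327 to 2891 in HF+CR, though Clps was low on all 6 arrays, and the elastase gene Cela1 rose from 427 ± 21.9 to 1559 ± 301 (log2 1.81, SE 0.30, adjusted p = 0.00359). The part of these markers in the changes of Prdx4 and in the falls of Gpx4, Prdx3 and Sod2 in HF+CR was not tested.

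Red cell transcripts also separated each restricted group from the group that ate the same diet at will without a wheel. The sum of 5 measured red blood cell markers, led by the heme synthesis gene Alas2 and with Epb42 under the dim threshold, was 839 to 904 in LF+CR and 1265 to 1483 in LF, but 1676 to 1836 in HF+CR and 1270.5 to 1354 in HF. It was 1580 to 1710 in LF+Ex, above LF and overlapping HF+CR, and 1284 to 1523 in HF+Ex. In LF+CR against LF 1 of 4 tested markers passed, Alas2, which was lower. In HF+CR against HF 2 of 4 passed by limma, both higher, Alas2 (0.49, adjusted p = 0.0081) and Slc4a1 (0.38, adjusted p = 0.0369). With the mean log2 value of the 4 markers above the dim threshold as a covariate, 0 of 7 genes passed in HF+CR against HF. The fold changes were then -0.29 for Prdx3, 0.32 for Prdx4, -0.23 for Gpx4 and -0.23 for Sod2, with standard errors of 0.10 to 0.23. With the beta-actin difference as a covariate, an alternative added after the data had been seen, Prdx4 alone passed there (0.35, adjusted p = 0.0165), beside -0.36 for Prdx3, -0.46 for Gpx4 and -0.23 for Sod2. The red cell sums of HF and HF+CR do not overlap, so that their part and that of restriction cannot be told apart in that fit. The actin differences of HF (0.63 to 0.84) and HF+CR (0.70 to 1.07) overlap. Those of LF (0.982 to 1.024) lie above those of HF and of LF+CR (0.745 to 0.940). In HF against LF and LF+CR against LF, RNA integrity and treatment thus cannot be told apart. Over the 18 arrays the actin difference had r = -0.67 with Prdx3 and 0.62 with Prdx4. With this covariate the Prdx4 call in HF against LF and the 3 calls for the difference of the restriction effects were lost.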

How the data were processed

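RNA from the livers of 18 mice, 3 in each of 6 groups, was measured on Affymetrix Mouse Genome 430 2.0 arrays. Per the labels, Trizol was used for RNA extraction and the cRNA carried biotin. Each deposited value is the linear intensity of a probe set, already summarised and scaled by the authors with a tool that is not given in the sources used here. They ran from 31.08 to 21654, and the medians of the arrays lay within 0.15 (log2) of each other, so that they were used as log2 of the intensity plus 16 without further normalization. For arrays the number of arrays limits the precision.

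Of 45037 probe sets other than controls, 34945 carried 1 gene symbol, 932 several and 9160 none, by GEO's platform annotation, with symbols checked through Entrez IDs against RefSeq (34741 matched, 0 changed). A gene was represented by its probe set with the highest mean log2 value among those with 1 symbol. Genes above the 40th percentile of an array on at least 3 arrays were tested (14201, with 3992 left out as dim).

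The linear model (limma 3.58.1, R 4.3.3) had 1 mean per group over the 18 arrays, with 12 residual degrees of freedom and 3.64 from the prior. It gave 9 contrasts of a pair of groups and 2 interactions. In each, p-values were adjusted by the Benjamini-Hochberg method over all tested genes, with a threshold of 0.05. The steps were tested on simulated data. Genes named beside the members are up to 4 per list and comparison that passed, and the 3 with the highest correlation to each member that passed; Txnrd1 and Gclc fall outside it and were picked once their values were known. The members and the gene lists were chosen with earlier results of these data known. Promoters come from RefSeq (GRCm38.p6). Alternatives were other normalizations, offsets of 1 and 64, other filters on dim genes, averaging a gene's probe sets, array weights, a trended robust variance, fits of the compared groups only, a replicate block, clock, red cell and RNA integrity covariates, and fits without 3, 4 or single arrays.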

Additional observations from a re-analysis of the deposited data

Results flagged for a closer look

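By the test of the difference itself, the effect of calorie restriction differed between the diets for 3 enzymes, each on its representative probe set. The test was limma, with 7 genes tested here and adjustment over all genes. For Prdx3 the difference between the effect on the high-fat and that on the low-fat diet was -0.79 on the log2 scale, with every LF+CR array above every LF array and every HF+CR array under every HF array. For Prdx4 it was 0.44, with every HF+CR array above every HF array and overlapping LF+CR and LF groups. For Sod2 it was -0.29, close to the threshold. Prdx3 has 1 probe set, while the values of Prdx4 and Sod2 rest on 1 of several. In the limma fit over probe sets, the other Prdx4 probe sets above the dim threshold gave 0.18 (adjusted p = 0.501) and 0.21 (adjusted p = 0.356). Those of Sod2 gave -0.27 (adjusted p = 0.0647), -0.07 (adjusted p = 0.688) and, with the opposite sign, 0.07 (adjusted p = 0.735).

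The probe sets shared by Prdx1 and the pseudogene Gm21399 entered no test. On 4 of the 5, every LF+CR array lay above every LF array, where 20.2% of all tested genes did not overlap in either direction. The 5 share most of their target and count as 1 measurement.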

How the results depend on the processing

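Of 282 alternative values for the 12 pairs of gene and comparison that passed, 183 kept the call, 99 lost it and 0 changed sign. The counts below are of the 7 genes. In HF against LF (1) it was 0 with centred arrays, the mean of the probe sets, the replicate block, the compared groups only, without HF 1, HF+Ex 3 and LF+CR 2 (the 3 arrays), without the 4 with pancreatic transcripts, and with the red cell or actin covariate, and 4 with array weights. In LF+CR against LF (0) it was 1 with quantile normalization and with array weights. In HF+CR against HF (4) it was 2 with the mean of the probe sets, the replicate block, the compared groups only and without the 3 arrays, 1 without the 4 arrays and with the actin covariate, and 0 with the red cell covariate. In LF+CR against LF+Ex (1) it was 0 with centred arrays, the compared groups only, without the 4 arrays and with either covariate, and 2 with array weights. In HF+CR against HF+Ex (1) it was 2 with the mean of the probe sets, the clock covariate and without the 3 arrays, 3 with array weights, and 0 with the compared groups only, without the 4 arrays and with the red cell covariate. In HF+CR against LF+CR (1) it was 2 with quantile normalization, an offset of 64, no filter, the mean of the probe sets and without the 3 arrays, 4 with array weights, and 0 with the compared groups only, without the 4 arrays and with the red cell covariate. In HF+Ex against LF+Ex (1) it was 0 with the mean of the probe sets, the compared groups only, without the 4 arrays and with the actin covariate, and 2 with array weights. The difference of the restriction effects (3) had 0 without the 4 arrays and with the red cell or actin covariate. Both running comparisons and their difference had 0 throughout. The cause of these moves was not tested.

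With single arrays left out the counts were 0 to 1 in HF against LF, LF+CR against LF, LF+CR against LF+Ex and HF+Ex against LF+Ex, 1 to 3 in HF+CR against HF, 1 in HF+CR against HF+Ex, 0 to 2 in HF+CR against LF+CR, and 2 to 4 for the difference of the restriction effects. Replicate numbers do not pair the arrays: deviations of same-numbered arrays correlated from -0.36 to 0.29, and the replicate block gave the counts above and left the other comparisons within 1.5 times. With 3 mice a group the standard errors of Gpx4 and Prdx3 between 2 groups were 0.14 and 0.11 on the log2 scale. Differences well above these sizes also missed the threshold by limma. Examples are 0.38 for Prdx3 in HF against LF (adjusted p = 0.0972) and -0.48 for Gpx4 in HF+CR against HF+Ex (adjusted p = 0.0708).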

Other observations

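Some pairs of these enzymes were related in one way between groups and in another within them. Over the 18 arrays Prdx4 and Gpx1 had r = -0.52, and after removal of the group means r = 0.72. Cat and Gpx4 had r = -0.55 over all arrays and -0.77 within groups, and Cat followed the summed Kupffer cell and macrophage markers with r = -0.53 and -0.77 within groups. The points share preparation and the scaling of the deposited values, and no p is given.

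The within-group SD of log2 values was 0.19 for Gpx4 and 0.14 for Prdx3, against 0.05 for Prdx2, Gpx1 and Cat and a median of 0.11 over all tested genes.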
